A study of Tupaia belangeri chinensis with 36 samples.

Results

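piRNA clusters are stretches of the genome from which many piRNAs are made. The 146 clusters of the deposited cluster table were followed in the cauda epididymidis of the Chinese tree shrew (Tupaia belangeri chinensis) between a non-reproductive season (NR) and a reproductive season (R). All 146 clusters of the table were taken, in 5 of the 36 libraries of the series: CAUDA-NR 1 and 2 and CAUDA-R 1, 2 and 3. The CAUDA-NR column numbered 3 equals the mean of the other 2 in this table and was left out. The animals were sexually mature males of 1.5 to 2 years, untreated as far as the labels say, and each library came from whole cauda tissue. NR tissue was collected in December 2023 and R tissue in April 2024, so season and collection date cannot be told apart. The labels call the samples biological replicates, and whether samples with the same number came from 1 animal is not given in the sources used here.

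piRNAs are small RNAs, somewhat longer than miRNAs, that are bound by PIWI proteins and guide them to silence transposons and other transcripts in germ cells. In the mammalian testis, long precursor transcripts of the clusters are cut into piRNAs, and a class of them becomes abundant when spermatocytes reach pachytene. The cauda is the tail of the epididymis, where mature sperm are stored. It has no dividing germ line of its own, and its tissue is mainly epithelium, muscle and stored sperm. In whole tissue, fewer cells of a type and less RNA per cell cannot be told apart. Gene identifiers of the series could not be matched to symbols, so the tissue was not checked against marker genes. Cluster coordinates and sequences were not analysed here.

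Counts are expressed as the share of the cluster total that a cluster took in its library. CAUDA-NR 1 and 2 held 34218 and 40043 cluster counts, and CAUDA-R 1, 2 and 3 held 138667, 35785 and 91015. Of the cluster values, 97.3% were not whole numbers, and all 146 clusters had a value above 0 in every cauda library. A floor of 3 counts corresponds to a share of 0.00877% in CAUDA-NR 1 and 0.00216% in CAUDA-R 1, and floors and intervals cover counting error only.

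The seasons had different leading clusters. The 10 largest clusters of NR and the 10 largest of R had 0 members in common. The 10 largest of NR held 87.1% and 75.0% of the cluster counts in CAUDA-NR 1 and 2, but 2.79%, 6.29% and 3.21% in CAUDA-R 1, 2 and 3. The 10 largest of R held 1.05% and 8.34% in CAUDA-NR 1 and 2, and 69.1%, 64.9% and 68.8% in CAUDA-R 1, 2 and 3. Each list is built from the libraries of 1 season, so these sums describe it and test nothing.

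**Figure D1:**
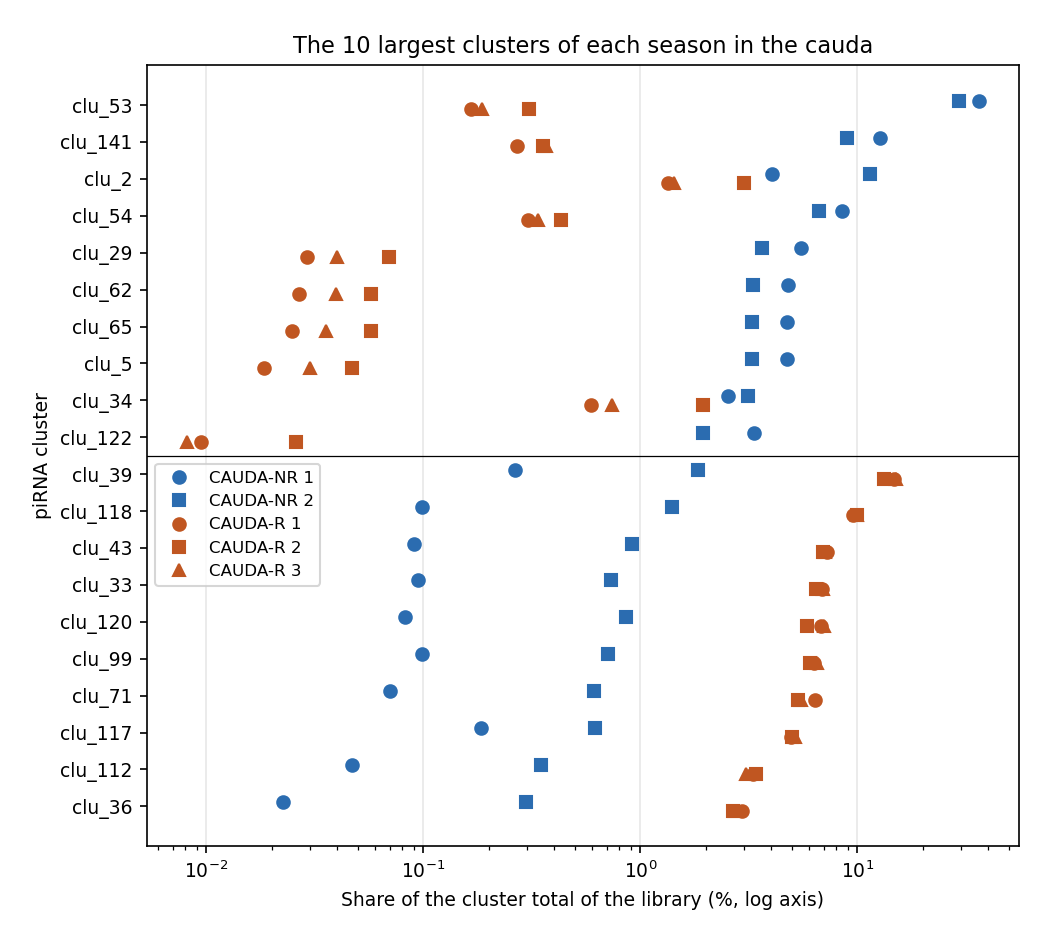
Share of the cluster total (%, log axis) of the 10 largest clusters of NR (upper block) and of R (lower block), with 1 point per cauda library, blue for NR and orange for R. In the lower block the orange points lie close together and to the right of both blue points, while CAUDA-NR 1 lies to the left of CAUDA-NR 2.

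Over the whole table the shares of 70 clusters (47.9%) were higher in every R library than in both NR libraries, and those of 59 (40.4%) were lower. By edgeR's quasi-likelihood test, 54 of 119 tested clusters (45.4%) rose in R and 55 (46.2%) fell, at a Benjamini-Hochberg adjusted p under 0.05. Calls in both directions made up 91.6% of the tested clusters, so being called says little of a single cluster, and size and direction are given below. All 54 that rose and all 55 that fell had seasons whose shares did not overlap. The calls ranged from 1.64 to 8.48 on the log2 scale among those that rose, and from -7.64 to -1.39 among those that fell. The number that fell was 36 without CAUDA-NR 2.

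**Figure D2:**
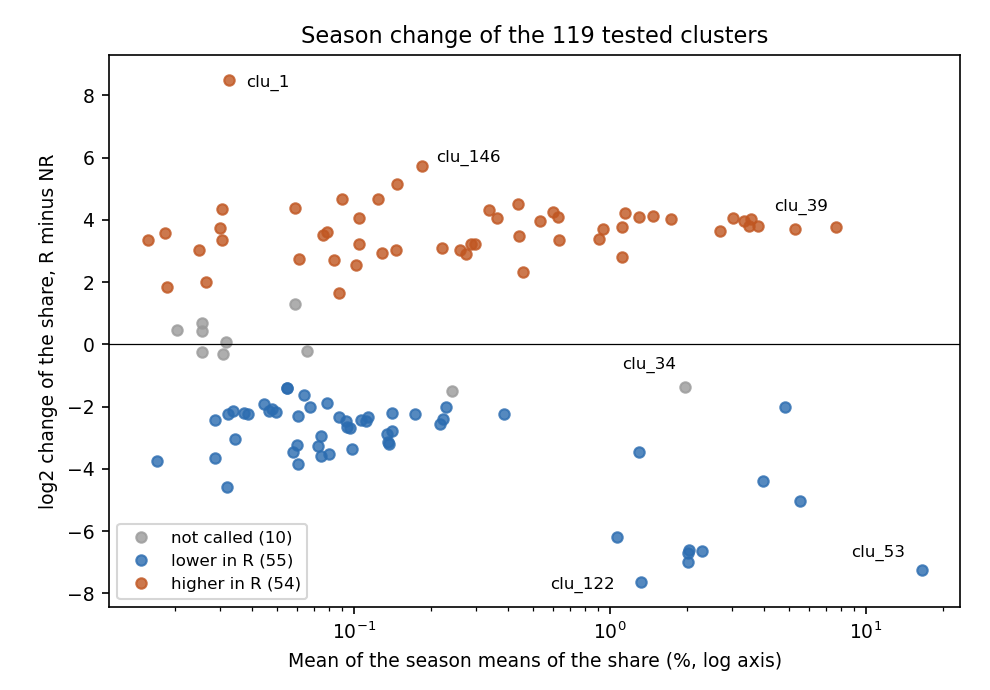
log2 change of the share (R minus NR) against the mean of the 2 season means (%, log axis) for the 119 clusters that passed the filter on low counts, 1 point each. Orange points rose (54), blue points fell (55) and grey points were not called (10), and few points lie near 0 on the vertical axis.

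Scaling moved the middle of this distribution. The median log2 change of the tested clusters was -0.21 with library totals, -0.30 with TMM, 0.30 with DESeq2 size factors and 1.12 with miRNA totals. With miRNA totals 59 clusters (49.6%) were higher and 36 (30.3%) lower, 62.1% of the calls higher against 49.5% with library totals. The same 54 clusters were higher under both scalings, and 36 of the 55 that fell were lower under both. None of the 109 was called in the opposite direction with miRNA totals.

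Among the clusters that fell, clu_53 was the largest of NR. It took 36.3% and 29.5% of the counts in CAUDA-NR 1 and 2, and 0.165%, 0.306% and 0.186% in CAUDA-R 1, 2 and 3. Its mean share was 150.2-fold higher in NR, at 32.9% ± 4.78 (SD, n = 2) against 0.219% ± 0.0765 (SD, n = 3), a log2 change of -7.23 (SE 0.78, edgeR adjusted p 1.90e-05). It was 1st in rank in NR and 40th in R. Read counting allowed 0.144% to 0.188% for its share in CAUDA-R 1 (exact binomial 95% interval). Its counts went from 12411 and 11819 to 229, 110 and 169, and CAUDA-R 2, with 110, had a cluster total close to those of NR.

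clu_141 and clu_54 were the next large clusters with a fall of over 20-fold. clu_141 took 12.7% and 8.91% in CAUDA-NR 1 and 2, and 0.270%, 0.356% and 0.366% in CAUDA-R 1, 2 and 3 (log2 change -5.03, SE 0.80, edgeR adjusted p 0.000179). clu_54 took 8.48% and 6.67% in NR, and 0.305%, 0.431% and 0.339% in R, which is a log2 change of -4.40 (SE 0.81, adjusted p 0.000404). In both, the 3 R libraries lay close together and the lower NR library was far above them.

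clu_29, clu_62, clu_65 and clu_5 moved as one. Their shares were 5.46%, 4.77%, 4.75% and 4.75% in CAUDA-NR 1, and 3.62%, 3.30%, 3.27% and 3.26% in CAUDA-NR 2. In R they were lowest in CAUDA-R 1, at 0.0291%, 0.0268%, 0.0247% and 0.0185%, and highest in CAUDA-R 2, at 0.0690%, 0.0576%, 0.0576% and 0.0470%. CAUDA-R 3 had 0.0400%, 0.0394%, 0.0355% and 0.0301%. Within a cauda library the highest of the 4 was 1.11 to 1.57 times the lowest. Whether reads that map to several places were divided among them was not tested, so they may not be 4 separate measurements. Each was called, with log2 changes of -6.64, -6.61, -6.69 and -6.99 and an edgeR adjusted p of 8.55e-05.

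clu_122 had the most negative change of the called clusters. Its share was 3.34% and 1.94% in CAUDA-NR 1 and 2, and 0.00942%, 0.0259% and 0.00810% in CAUDA-R 1, 2 and 3 (log2 change -7.64, SE 1.08, edgeR adjusted p 8.55e-05). The R values rest on 13.1, 9.28 and 7.37 counts. clu_28 took 2.42% and 1.79% in NR and 0.0227%, 0.0587% and 0.00916% in R, a log2 change of -6.18 (adjusted p 0.000269). Smaller clusters fell less: clu_98, clu_46 and clu_61 were at 0.0716% to 0.197% in NR and 0.00190% to 0.0233% in R, with log2 changes of -3.84, -3.59 and -3.51.

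Not all of the large NR clusters fell as far. clu_2 took 4.05% and 11.4% in CAUDA-NR 1 and 2 and stayed above 1% in R, at 1.35%, 2.998% and 1.43%. Its log2 change of -2.01 (SE 0.80) had an edgeR adjusted p of 0.0267, but 0.0617 with DESeq2 size factors, 0.453 with miRNA totals, and 0.129, 0.0971 and 0.127 without CAUDA-NR 2, CAUDA-R 1 or CAUDA-R 3. clu_34 took 2.54% and 3.12% in NR and 0.594%, 1.95% and 0.737% in R. It was not called, at a log2 change of -1.38 (SE 0.85, adjusted p 0.133). It had an adjusted p of 0.0350 when totals left out the 5 largest clusters, and 0.0487 without CAUDA-R 2. clu_34 had 133 and 97.8 counts per 1000000 miRNA counts in NR and 85.8, 98.6 and 84.8 in R, and its seasons overlapped on that scale.

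Among the clusters that rose, clu_39 was the largest of R. It took 0.264% and 1.85% in CAUDA-NR 1 and 2, and 14.8%, 13.2% and 14.997% in CAUDA-R 1, 2 and 3. Its mean share was 13.5-fold higher in R, 14.3% ± 0.991 (SD, n = 3) against 1.06% ± 1.12 (SD, n = 2), a log2 change of 3.76 (SE 0.94, edgeR adjusted p 0.00336). The spread within NR exceeded its mean, since CAUDA-NR 2 was 7.01 times CAUDA-NR 1. Read counting allowed 0.212% to 0.323% in CAUDA-NR 1 and 1.72% to 1.99% in CAUDA-NR 2, so these libraries differed by more than counting error. The fitted change of clu_39 was 5.77 without CAUDA-NR 2 and 2.95 without CAUDA-NR 1, where the lone NR library is assumed to vary like the R libraries.

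The next clusters of R repeated this pattern. clu_118 took 0.0984% and 1.40% in NR and 9.58%, 9.99% and 9.93% in R, a log2 change of 3.71 (SE 1.06, edgeR adjusted p 0.00532). clu_43 took 0.0904% and 0.916% in NR, against 7.21%, 6.97% and 7.05% in R, a log2 change of 3.81 (SE 1.05, adjusted p 0.00457). clu_33, clu_120, clu_99, clu_71, clu_117, clu_112 and clu_36 had mean shares of 2.78% to 6.74% in R and log2 changes of 3.63 to 4.11, with adjusted p of 0.00357 to 0.00492. In each of the 10 the highest R share was at most 1.20 times the lowest, and CAUDA-NR 2 was above CAUDA-NR 1. Their size therefore moved with the NR library kept: without CAUDA-NR 2 the changes were 4.76 for clu_117 to 6.88 for clu_36, and without CAUDA-NR 1 they were 2.81 for clu_118 to 3.23 for clu_71, with all 10 called in both cases. The fall of clu_53 was -7.39 and -7.09 in these cases, that of clu_98 was -3.19 and -4.29, and that of clu_61 was -3.94 and -2.88, each still called. clu_2 had -1.08 and -2.57 and lost its call without CAUDA-NR 2.

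The libraries of a season were not equally alike. CAUDA-NR 2 exceeded CAUDA-NR 1 in 50 of the 54 clusters that rose, with a median ratio of 5.36, and in 33 of the 55 that fell, with a median ratio of 1.25. Of the 55 that fell, 47 had their highest R share in CAUDA-R 2, the R library with the smallest cluster total. These counts were not made over all clusters, so they do not set the called clusters apart from the rest. Summing over clusters the smaller of both shares gave 78.7% for the pair CAUDA-NR 1 and 2, 92.6% to 97.2% for pairs of R libraries, and 5.80% to 21.5% for pairs across the seasons.

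The largest folds among the clusters that rose belonged to small clusters with few NR counts. clu_146 had 1.75 and 2.81 counts in CAUDA-NR 1 and 2 and 668, 53.1 and 414 in CAUDA-R 1, 2 and 3, shares of 0.00511% and 0.00702% against 0.482%, 0.148% and 0.455% (log2 change 5.72, SE 1.15, edgeR adjusted p 0.000709). Its R libraries were uneven, with CAUDA-R 2 lowest. clu_25 took 0.00523% and 0.0104% in NR and 0.322%, 0.214% and 0.329% in R, a log2 change of 5.14 (SE 1.01, adjusted p 0.000607). clu_135, clu_55, clu_116, clu_76, clu_68, clu_19, clu_115, clu_57 and clu_50 also rose, by 4.10 to 4.66 on the log2 scale.

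clu_1 rounded to 0 counts in both NR libraries and had 90.5, 15.1 and 79.1 counts in CAUDA-R 1, 2 and 3. Its share was at least 16.04-fold higher in R, measured against 3 counts over both NR libraries. Its fitted log2 change of 8.48 depends on the prior count and is no bound. A further 4 called clusters had 1 to 3 counts over both NR libraries. One of them, clu_130, had 2 NR counts and a ratio of 12.6 (exact Poisson 95% interval of the NR count, 3.48 to 104). In total, 17 of the clusters called higher had at most 10 NR counts. Clusters with few NR counts pass the filter mainly through their R counts, so the number called among them is partly set by the filter.

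The 37 other clusters were not called or not tested. Of the 10 tested and not called, 5 had a positive and 5 a negative change, with adjusted p of 0.0521 to 0.905, and the seasons overlapped in 6. Apart from clu_34 and clu_59, the latter named after its values were seen, their mean shares stayed at or under 0.0846%. The 27 that missed the filter had at most 37.8 counts in any cauda library. Their shares were higher in all R libraries for 15, lower for 1 and overlapping for 11.

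Counts were also set relative to the miRNA counts of the same library. This is another ratio and not an amount of RNA. The miRNA totals were 6528407 and 12781794 in CAUDA-NR 1 and 2, and 9591069, 7061843 and 7906896 in CAUDA-R 1, 2 and 3. Whether miRNA per cell or tissue differed between the seasons was not tested. In counts per 1000000 miRNA counts, 78 clusters (53.4%) were higher in every R library than in both NR libraries, and 46 (31.5%) were lower. All 54 that rose in share were higher on this scale too. Of the 55 that fell in share, 45 were lower on it and 10 overlapped between the seasons. For clu_53 the values were 1901 and 925 per 1000000 miRNA counts in CAUDA-NR 1 and 2, and 23.8, 15.5 and 21.4 in CAUDA-R 1, 2 and 3. For clu_39 they were 13.8 and 58.0 in NR and 2138, 668 and 1726 in R.

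The cluster total itself differed less. Its mean was 4187 ± 1491 per 1000000 miRNA counts over both NR libraries (SD, n = 2) and 10345 ± 4803 over the 3 of R (SD, n = 3). The values were 5241 and 3133 in CAUDA-NR 1 and 2 and 14458, 5067 and 11511 in CAUDA-R 1, 2 and 3, and CAUDA-R 2 lay below CAUDA-NR 1. The exact permutation p, two-sided, was 0.3 (0.36 adjusted over 6 library measures), where 0.1 is the smallest p that 2 against 3 libraries allow. The ratio of cluster counts to counts in the piRNA table of the same library was 0.299 and 0.382 in NR and 1.65, 1.52 and 1.55 in R. That ratio was 4.62-fold higher in R without overlap (exact permutation p = 0.1, adjusted 0.2). Without the 5 largest clusters it was 7.25-fold higher (exact permutation p = 0.1). The R over NR ratio of the cluster total went from 2.38 to 3.74, and per 1000000 miRNA counts from 2.47 to 3.88. The exact permutation p was 0.2 for both. These 5 were clu_53, clu_39, clu_141, clu_118 and clu_2, picked from the same libraries. They held a larger part of the counts in NR than in R, so leaving them out raises these ratios by construction.

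NR counts were held by fewer clusters. The 10 largest of each library held 87.1% and 76.0% in NR and 69.1%, 65.2% and 68.8% in R. The inverse Simpson number, the number of equally large clusters that would give the same concentration, was 5.91 and 8.28 in NR and 16.2, 18.1 and 16.04 in R. Both measures separated the seasons, at an exact permutation p = 0.1 (adjusted 0.2). Without the 5 largest clusters the ratio of the inverse Simpson numbers, R over NR, went from 2.36 to 1.27 and that of the share of the 10 largest from 0.830 to 0.878. The seasons then no longer separated in either (exact permutation p = 0.3). These 5 were picked by size from the same libraries and held a larger part of the counts in NR, so this loss of separation is partly set by that choice.

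The R pattern was set beside that of the testis, where pachytene piRNAs are made, in 3 TESTIS-R and 2 TESTIS-NR libraries of the same seasons. The 10 largest clusters of CAUDA-R were also the 10 largest of TESTIS-R. The part of the composition that a cauda library shared with the TESTIS-R mean was 94.1%, 89.5% and 94.1% in CAUDA-R 1, 2 and 3, and 3.67% and 13.9% in CAUDA-NR 1 and 2. Of the 54 clusters that rose, 48 had a CAUDA-R mean share within 1.5 times of the TESTIS-R mean. The same count was not made over all clusters, so it describes those 54 and does not set them apart. clu_39 took 15.7%, 15.2% and 15.8% in TESTIS-R 1, 2 and 3, and 15.4% and 13.3% in TESTIS-NR 1 and 2.

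Lists drawn from the TESTIS-R libraries, which did not enter the cauda test, showed this split. Both lists were chosen after the values were seen and have no test. The 20 clusters with the largest mean share in TESTIS-R all rose in the cauda, 20 of 20 against 45.4% of all tested clusters. Together they held 1.49% and 10.5% of the counts in CAUDA-NR 1 and 2, 85.9%, 80.7% and 85.2% in CAUDA-R 1, 2 and 3, and 87.0% to 87.5% in TESTIS-R. With the replicate number as a block in the fit, 1 of the 20 largest in TESTIS-R was called higher, against 20 of all 119 tested clusters. Of the 25 clusters with a mean under 0.01% in TESTIS-R, 20 were tested and 5 missed the filter. All 20 tested ones fell, against 46.2% of all tested clusters. Clusters with few R counts pass the filter mainly through their NR counts, so that count is partly set by the filter and is no support. Of all 27 clusters that missed the filter, 15 were higher in every R library, 1 was lower and 11 overlapped. These 25 held 64.9% and 51.3% in CAUDA-NR 1 and 2, and 0.525%, 1.48% and 0.693% in CAUDA-R 1, 2 and 3.

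**Figure D3:**
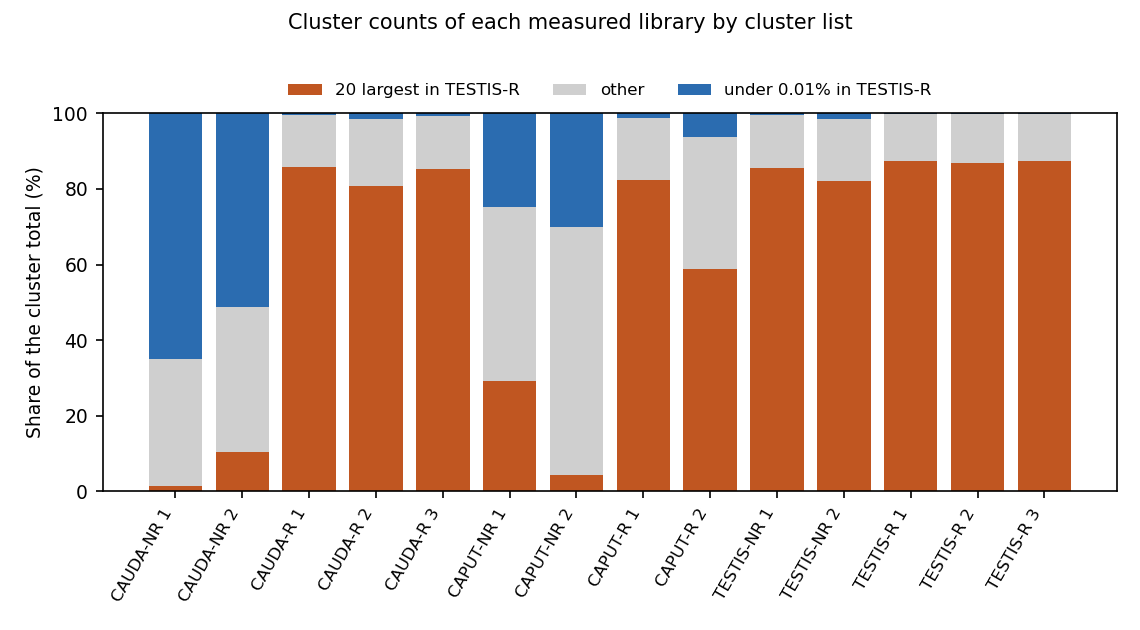
Share of the cluster total (%) held by the 20 clusters largest in TESTIS-R (orange), by those under 0.01% there (blue) and by all others (grey), with 1 bar per measured library. Orange holds 80.7% to 85.9% of the CAUDA-R bars, 82.1% to 87.5% of the testis bars, and 1.49% and 10.5% of the CAUDA-NR bars.

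On the miRNA scale both lists moved. The 20 testis-rich clusters had 78.0 and 329 counts per 1000000 miRNA counts in CAUDA-NR 1 and 2, and 12425, 4091 and 9811 in CAUDA-R 1, 2 and 3. The 25 testis-poor clusters had 3402 and 1608 in NR and 75.9, 75.0 and 79.7 in R. The R libraries differed widely for the first list and little for the second.

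**Figure D4:**
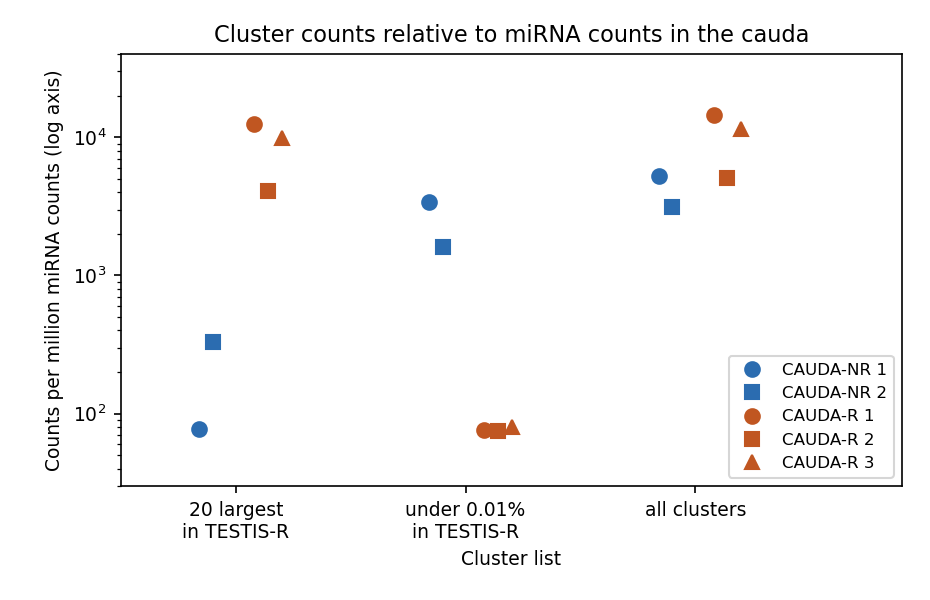
Counts per 1000000 miRNA counts (log axis) in the 5 cauda libraries for the 20 clusters largest in TESTIS-R, the 25 under 0.01% there and all 146, with 1 point per library, blue for NR and orange for R. The R points lie above both NR points in the first column (4091 to 12425), below them in the second (75.0 to 79.7), and overlap with them in the third (5067 to 14458).

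CAUDA-R and TESTIS-R differed for some clusters. Of all 146 clusters, 29 (19.9%) had a share in every CAUDA-R library above that of every TESTIS-R library. They included 17 of the 55 that fell and 7 of the 54 that rose. clu_53 had a mean share of 0.219% in CAUDA-R and 0.00186% in TESTIS-R. clu_2 had 1.92% and 0.0175%, and clu_34 had 1.09% and 0.0109%. Across the 146 clusters the rank correlation of the mean shares of CAUDA-R and TESTIS-R was 0.798, as a description of points that share libraries.

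**Figure D5:**
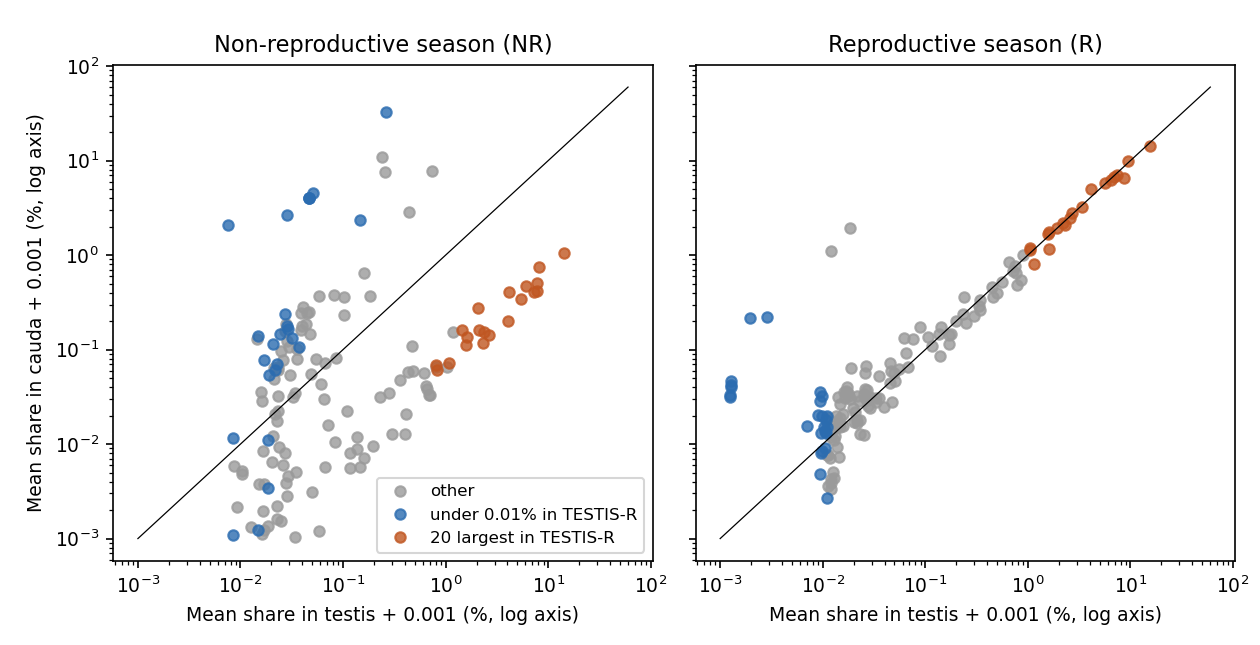
Mean share in the cauda against mean share in the testis (both as % plus 0.001, log axes) for the 146 clusters in NR (left) and R (right), with the line of equality. In R the 20 clusters largest in TESTIS-R (orange) lie along the line, and in NR they lie below it, while clusters under 0.01% in TESTIS-R (blue) lie mostly above it in NR.

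The difference of the season changes, cauda minus testis, was tested as an interaction over 10 libraries. edgeR called 91 of 146 clusters (62.3%), 70 with a more positive change in the cauda (47.9%) and 21 with a more negative one (14.4%). All 20 testis-rich clusters were among the 70. Of the 54 that rose in the cauda 53 were, and of the 55 that fell 21 had a negative call, 3 a positive call and the others none. These counts reuse the cauda libraries that gave the calls and are a description. Of the 25 testis-poor clusters, 6 had a negative and 3 a positive call. Both testis lists were drawn from the TESTIS-R libraries, which also enter this interaction, so the counts for these lists are no support. For clu_39 the difference was 3.64 (SE 1.01, adjusted p 0.00838). For clu_53 it was -0.12 (adjusted p 0.910), since this cluster also had lower shares in TESTIS-R, with 0.129% and 0.390% in TESTIS-NR 1 and 2 and 0.00160% to 0.00231% in TESTIS-R. The number of negative calls was 8 with TMM, 45 with DESeq2 size factors, 42 without CAUDA-R 2 and 14 without CAUDA-NR 2 or without TESTIS-NR 1.

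The caput, the head of the epididymis, gave season means of the same sign. Of the 54 clusters that rose in the cauda, 52 had a higher mean share in CAPUT-R than in CAPUT-NR, and of the 55 that fell, 54 had a lower one. The same counts were not made over all clusters, so they describe the called clusters and do not set them apart. The difference of the season changes, cauda minus caput, was called for 1 of 125 clusters (0.8%), clu_130, and at an unadjusted p under 0.05 there were 15, of which 7 were more positive in the cauda and 8 more negative. Without CAUDA-R 2 the calls were 3, all more positive, and without CAPUT-R 1 they were 10, with 4 more positive and 6 more negative, while DESeq2 gave 1 and 8. With n = 2 in each caput group, this does not show that the segments changed alike. CAPUT-R 1 and 2 differed, with 82.4% and 58.9% of counts in the testis-rich clusters, as did CAPUT-NR 1 and 2, with 29.1% and 4.41%.

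Other measures of the same seasons were looked at beside these shares. The cluster totals of the cauda libraries were 0.594% and 0.695% of the mean TESTIS-R total in CAUDA-NR 1 and 2, and 2.41%, 0.621% and 1.58% in CAUDA-R 1, 2 and 3. In poly(A) RNA-seq of the cauda, 657 testis-enriched genes took 0.0324%, 0.0465% and 0.0358% of the counts in NR and 0.0416%, 0.0360% and 0.0605% in R, and the seasons overlapped. Those genes had a mean of at least 20 CPM in the testis and a median under 1 CPM over all epididymis libraries, a filter that used the cauda libraries themselves. With the filter on the caput libraries alone, a choice made after seeing the data, 445 genes took 0.0292%, 0.0302% and 0.0275% in NR and 0.0372%, 0.0351% and 0.0353% in R, without overlap and with a ratio of means of 1.24. The labels do not tie a small RNA library to 1 animal's RNA-seq library. The part of these 2 measures in the cluster shares was not tested.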

How the data were processed

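Small RNA of whole tissue was sequenced with single reads of 50 nt. Cluster values were deposited in the unit of expected counts, mostly not whole, in 1 column per sample. featureCounts and bedtools are listed in the submitters' processing notes. The sources used here do not give the aligner, the genome build, the cluster caller or why values have fractions. The deposited miRNA, piRNA and gene tables hold raw counts and served for library totals and for testis-enriched genes. Cluster counts were rounded and tested by the quasi-likelihood method of edgeR 4.0.16, run in R 4.3.3 (default low-count filter, library totals, Benjamini-Hochberg adjustment over all tested clusters). Library measures had two-sided exact permutation tests. Averaged columns, 4 in the cluster table, were found with a relative tolerance of 1e-06 and left out. The fit was tested on simulated data in which a minority of clusters changed and all varied alike between libraries. Most tested clusters were called here, so that simulation does not match these data. Named were the 10 largest clusters of each season, up to 12 called per direction with non-overlapping shares and a mean of at least 0.1% in the higher season, clu_146, clu_25, clu_29 and clu_5, and up to 5 interactions per direction. Members, lists and tests were chosen with earlier results of these data known. Alternatives included TMM, DESeq2 1.42.0, miRNA totals, no filter, a replicate block and leaving out each library. P-values measure the spread between these samples only.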

Additional observations from a re-analysis of the deposited data

Results flagged for a closer look

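The season change of these clusters differed between tissues by the interaction test of edgeR. More positive in the cauda than in the testis were clu_22 (4.37 on the log2 scale), clu_55 (4.42), clu_135 (4.39), clu_24 (3.97) and clu_1 (12.995), each at an adjusted p of 0.000467. The value of clu_1 depends on the prior count, since both CAUDA-NR libraries rounded to 0, and is no bound. In these 5, shares rose in the cauda and differed less in the testis. clu_55, for example, took 0.00442% and 0.0128% in CAUDA-NR 1 and 2 and 0.222% to 0.257% in CAUDA-R, but 0.196% and 0.193% in TESTIS-NR 1 and 2 and 0.212% to 0.267% in TESTIS-R. clu_22 and clu_24 had lower testis shares in R, 0.142% to 0.193% against 0.251% and 0.353% for clu_22.

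More negative in the cauda than in the testis were clu_141 (-5.55, adjusted p 0.000467), clu_122 (-5.54, 0.000467), clu_54 (-4.28, 0.000574), clu_60 (-3.98, 0.00119) and clu_46 (-2.99, 0.00327). clu_141 took 0.256% and 0.219% in TESTIS-NR 1 and 2 and 0.270% to 0.402% in TESTIS-R, where its cauda share fell from 12.7% and 8.91% to 0.270% to 0.366%. clu_60 took 0.0980% and 0.161% in CAUDA-NR 1 and 2 and 0.00769% to 0.0315% in CAUDA-R.

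Between the segments of the epididymis clu_130 differed, by 4.99 (cauda minus caput, SE 1.14, adjusted p 0.0448). It had 2 counts over both CAUDA-NR libraries. Its call was lost with TMM (0.204), with DESeq2 size factors (0.151) and when CAUDA-NR 1 (0.342), CAUDA-NR 2 (0.143), CAUDA-R 1 (0.0873), CAUDA-R 3 (0.0822), CAPUT-NR 1 (0.110), CAPUT-NR 2 (0.128) or CAPUT-R 2 (0.119) was left out.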

How the results depend on the processing

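With n = 2 in NR, exact tests of single values cannot go below 0.1, and small clusters rest on few counts. With miRNA totals 36 clusters were lower in place of 55. With the replicate block 20 of 119 tested clusters were higher and 35 lower, all among the calls without it. In that fit 1 of the 20 testis-rich clusters and 17 of the 20 tested testis-poor ones were called. CAUDA-R 3 is the only library numbered 3 in that fit, so it has its own term and adds nothing to the season change. Few degrees of freedom remain, and the fewer calls cannot be read as a replicate effect. Same-numbered libraries did not deviate together (r = -0.304 for numbers 1 and -0.391 for numbers 2, over 119 clusters), and with 2 NR libraries the deviations mirror each other. Leaving out 1 cauda library gave 46 to 62 higher and 36 to 58 lower. Cauda minus testis gave 8 negative calls with TMM, 45 with DESeq2 size factors, 47 with DESeq2 and 14 to 42 without 1 library, and 63 to 70 positive ones without 1 library. Cauda minus caput gave 0 positive calls with TMM, DESeq2 size factors or the replicate block, 8 negative ones with DESeq2, and 0 to 4 positive and 0 to 6 negative ones without 1 library. The cause of these shifts was not tested. Without 1 library the ratio R over NR was 1.71 to 3.09 for the cluster total, 1.97 to 3.30 per miRNA count, 4.12 to 5.26 per piRNA count, and 2.02 to 2.83 for the inverse Simpson number. Over 600 values of the season change of 40 named clusters, 0 reversed, 24 lost and 3 gained a call, of which 19 fell under the replicate block. miRNA totals were not run for the interactions, because TESTIS-NR 2 and CAPUT-NR 2 are averaged in the miRNA table.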
